A study of Mus musculus with 4 samples.

Results

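Genes of MHC class I antigen presentation were examined in stimulated mouse CD4+ T cells that did or did not express a mutant of the RNA-binding protein Regnase-1. The set holds 10 genes, chosen by symbol for their known place in the pathway. They are the heavy chain genes H2-K1, H2-D1, H2-T23 and H2-Q7, the light chain gene B2m, the transporter and loading genes Tap1, Tap2 and Tapbp, the trimming enzyme gene Erap1 and the transactivator gene Nlrc5. All 10 were found among the 16142 genes of the expression table, and all 10 passed the filter on low values.

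RNA-seq was available for 2 libraries of wild type (WT) B6 mice and 2 libraries of Cd4CreERT2LSL-R111Afl/fl mice, here called R111A. In the R111A protein the arginine of Regnase-1 at which the protease MALT1 cuts it is replaced by alanine. The mutant was carried as a transgene in the Rosa26 locus under the CAG promoter and marked by EGFP, and its stop cassette was removed by a tamoxifen-inducible Cre expressed under Cd4 control, so Zc3h12a, the endogenous Regnase-1 gene, was also present. Tamoxifen was given i.p. at 75 mg/kg for 5 days, and the labels do not make plain whether the WT mice of these libraries received it too. Splenic CD4+ T cells were isolated without labelling them, sorted by FACS and stimulated for 12 h with anti-CD3 (5 µg/mL) and anti-CD28 (1 µg/mL). The methods describe, for mice with a GFP reporter, a gate on GFP+ cells followed by a split into CD25+ and CD25- cells, and the labels do not say which gate or fraction these libraries are. The methods give 6 to 12 weeks of age and both sexes for the mice in general, and nothing says that the 2 libraries of a group came from separate animals. The p-values below therefore measure only the spread between these libraries, which may be technical. The comparison asks how transcript levels differ when stimulated cells carry the R111A mutant.

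An MHC class I molecule is a heavy chain paired with the light chain beta-2 microglobulin, and it shows peptides of cytosolic proteins to CD8+ T cells. Peptides cut by the proteasome are pumped into the endoplasmic reticulum by the transporter TAP, trimmed there by aminopeptidases and loaded onto class I molecules with the help of tapasin. Lymphocytes are rich in class I, and Nlrc5 acts with factors of the RFX, NF-Y and CREB families on the promoters of heavy chain and B2m genes, where NF-kappaB and interferon regulatory factors also bind.

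Promoter windows of RefSeq (GRCm38.p6, 250 bases before to 50 bases after a start site) were matched for 8 of the 10 genes, all but Tap2 and Nlrc5. They were searched on both strands for letters of the known class I elements, and among the 9 windows (H2-K1 has 2 start sites) 0 matches overlapped a match of another motif. CCAAT, the core of the Y box, was present in 7 of the 8 genes, against 37.4% of the 32851 promoters of the table. TGACG, from the X2 box, was present in 5 of 8 (20.8% of all promoters), and AGCAAC, from the X1 box, in H2-T23 alone (14.8%). AANNGAAA, the core of the interferon-stimulated response element, was present in 6 of 8 (23.9%). The NF-kappaB letters GGGATTCC were present in the 3 heavy chain genes H2-K1, H2-D1 and H2-Q7 (1.06% of all promoters), and GGGANTTTC was present in B2m (1.11%). TTCNNNGAA, the interferon-gamma activated site, was in 0 of the 8 genes (8.3%). A match is a description of letters and does not show that a factor binds. Since the letters were picked as known class I elements, the shares beside those of all promoters are no test of enrichment. The start sites of this table are not always the outermost ones of a gene. The windows of H2-K1 and Erap1 lie wholly inside the RefSeq spans of these genes. Read to 10 bases after the start site, the windows of H2-D1, Tap1, Tapbp and Erap1 lie wholly within exons of GENCODE transcripts. For H2-T23, 164 of the 260 bases do. Matches in these windows thus need not lie upstream of all transcripts. Windows are printed to 10 bases after the start site for B2m and H2-Q7, with matches in capitals, because both genes were called higher in R111A cells on the FPKM and TPM scales. They lie at chr2:122147437-122147696 (plus strand, B2m) and chr17:35438905-35439164 (plus strand, H2-Q7).
B2m: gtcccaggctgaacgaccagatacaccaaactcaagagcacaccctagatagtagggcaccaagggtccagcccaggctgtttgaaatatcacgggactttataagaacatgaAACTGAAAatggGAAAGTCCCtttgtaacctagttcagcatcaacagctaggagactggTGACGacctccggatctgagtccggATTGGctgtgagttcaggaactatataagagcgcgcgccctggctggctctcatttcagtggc
H2-Q7: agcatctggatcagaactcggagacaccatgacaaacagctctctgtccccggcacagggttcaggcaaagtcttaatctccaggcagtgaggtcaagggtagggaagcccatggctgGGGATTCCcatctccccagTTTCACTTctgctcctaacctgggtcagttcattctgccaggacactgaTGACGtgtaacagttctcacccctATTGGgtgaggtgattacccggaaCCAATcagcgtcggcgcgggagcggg
In H2-Q7 the capitals run in the order GGGATTCC, the reverse complement of AANNGAAA, TGACG and a pair of CCAAT matches on opposite strands, and the matches of H2-K1 and H2-D1 have the same order. In B2m they are AANNGAAA, the reverse complement of GGGANTTTC, TGACG and the reverse complement of CCAAT.

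The values are FPKM (fragments counted for a gene, divided by its length and by library size), so levels can be compared between genes. Their sum over all genes was 801475 in WT replicate 1, 836143 in WT replicate 2, 1053551 in R111A replicate 1 and 1012215 in R111A replicate 2. The share of that sum held by 79 cytosolic ribosomal protein genes was 35.6% and 37.1% in WT and 52.2% and 50.2% in R111A. Because of these sums each gene was also rescaled to TPM, so that all libraries have equal totals. Over the 9831 genes tested (mean of at least 1 FPKM) the median log2 fold change was -0.12 on the FPKM scale and -0.42 on the TPM scale, and changes are given relative to these medians where the scale matters. Read depth is not given with the table. From steps among values of 0.1 to 0.6 FPKM, the depth of WT replicate 1 was about 1, 1.06 and 1.19 times that of WT replicate 2, R111A replicate 1 and R111A replicate 2. The replicates differed by a median of 0.09 on the log2 scale in WT and 0.21 in R111A over all genes tested, and by 0.10 and 0.35 over the 10 class I genes. R111A replicate 1 was above R111A replicate 2 for 8 of the 10 class I genes, against 48.4% of all genes tested.

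Zc3h12a stood at 16.97 and 15.72 FPKM in the WT pair and 196 and 131 FPKM in the R111A pair, which is 3.22 as a log2 fold change (SE 0.19, limma, adjusted p = 9.2e-06), in the direction of the labels, and the endogenous gene and the transgene cannot be told apart in this value. The T cell gene Cd3e stood at 172 and 157 FPKM in the WT pair and 180 and 135 FPKM in the R111A pair. Cd4 was at 158 and 131 FPKM in WT and fell to 70.69 and 51.35 FPKM in R111A (log2 fold change -1.24, SE 0.18, limma, adjusted p = 0.00057). Transcripts of the labelled cell type were thus present in each of the 4 libraries. In bulk RNA, fewer cells that express a gene and less of its RNA per cell cannot be told apart.

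The class I genes differed in direction. On the FPKM scale 3 of the 10 were called higher in R111A by limma at an adjusted p under 0.05 (21.2% of all genes tested), 1 was called lower (32.1%) and 6 were not called. B2m, H2-K1 and H2-Q7 were the higher genes and Erap1 was the lower gene. With a 2-fold change also required, 1 was higher (B2m, 8.52% of all genes) and 0 were lower (8.34%), while at an adjusted p alone 1 was lower. After rescaling to TPM 2 were higher (13.6%), 3 were lower (51.8%) and 5 were not called, and with a 2-fold change 1 was higher (5.93%) and 1 was lower (17.8%). The median log2 fold change of the 10 genes was 0.02 on the FPKM scale and -0.32 on the TPM scale. Of the 10, the share called higher was somewhat above that of all genes and the share called lower was below it on both scales, and neither difference was tested.

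**Figure D1:**
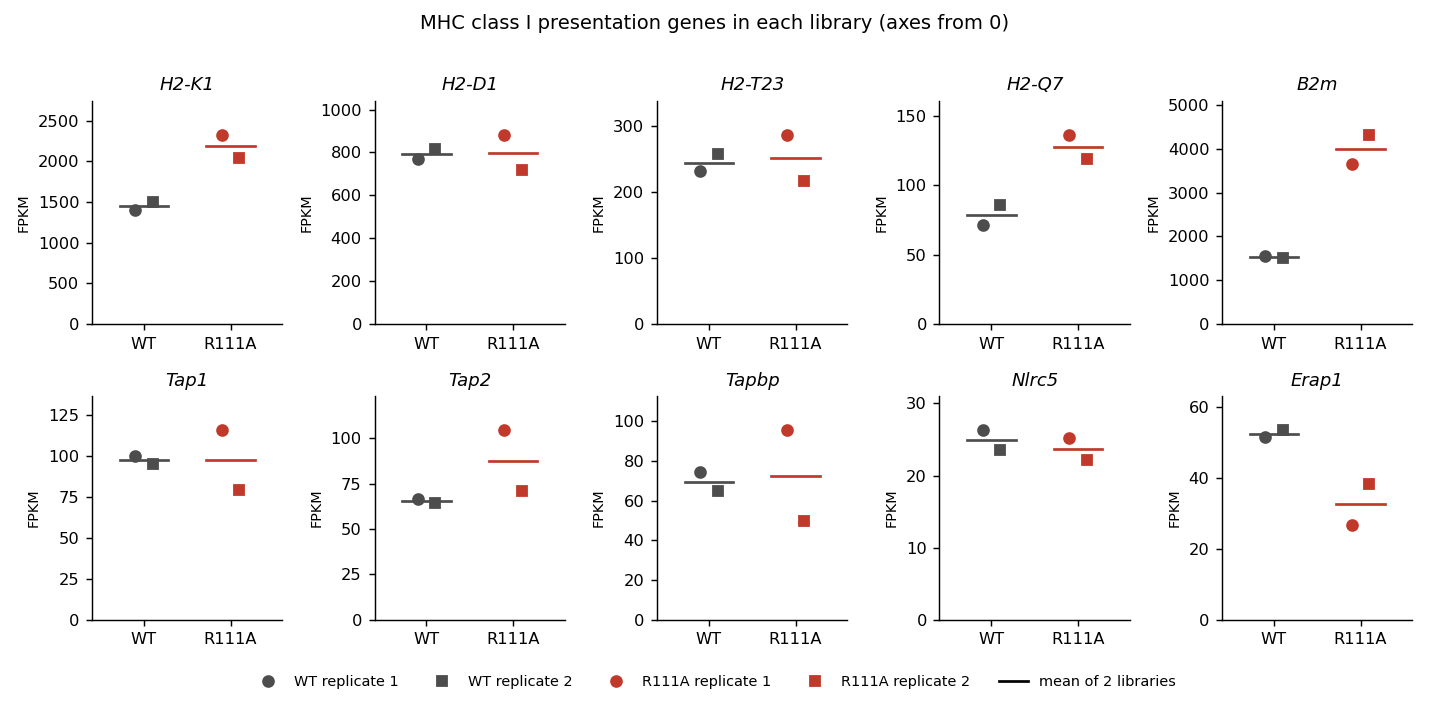
FPKM (vertical axes, each from 0) of the 10 class I genes in each library, with WT in grey, R111A in red, circles for replicate 1, squares for replicate 2 and lines for group means. B2m, H2-K1, H2-Q7 and Tap2 were higher in both R111A libraries, Erap1 was lower in both, and the groups overlapped for the other 5.

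Both R111A libraries were above both WT libraries for 4 of the 10 genes (32.0% of all genes tested) and below them for 1 (46.3%), with overlap for 5. On the TPM scale the counts were 3 above (18.9%), 5 below (63.9%) and 2 overlapping. With 2 libraries against 2, the smallest p of an exact two-sided permutation test is 0.333, and every adjusted p-value given here comes from limma, which borrows the spread of all genes.

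H2-K1 (NCBI gene 14972, chr17:33996012-34000619, GRCm38) encodes the classical heavy chain H2-K, and it was the most abundant of the 4 heavy chain genes in each library. It stood at 1398 and 1503 FPKM in the WT pair and 2324 and 2042 FPKM in the R111A pair. Both R111A libraries were high, and the groups did not overlap. Fitted across all genes, its log2 fold change was 0.59 (SE 0.13, limma, adjusted p = 0.0051), a 1.5-fold rise of the mean. Rescaling to TPM gave 0.25 and ended the call (adjusted p = 0.082, from 0.00059 to 0.082 over the alternatives), although on that scale too both R111A libraries were above both WT libraries. Relative to the median of all genes, the change was 0.70 on the FPKM scale and 0.67 on the TPM scale.

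H2-D1 (NCBI gene 14964, chr17:35263094-35267497) encodes H2-D, the other classical heavy chain of B6 mice. It stood at 768 and 816 FPKM in the WT pair and 882 and 717 FPKM in the R111A pair. The R111A libraries lay on both sides of the WT libraries, so the groups overlapped. The change on the log2 scale was 0.01 (SE 0.14, limma, adjusted p = 0.97), with a 95% interval from -0.31 to 0.33. Rescaled to TPM, both R111A libraries were lower and the gene was called, at -0.33 (adjusted p = 0.041, up to 0.98 over the alternatives), which is 0.09 above the median of all genes on that scale. Without R111A replicate 1 the change was -0.14, and without WT replicate 1 it was -0.04.

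The ratio of these 2 heavy chains is unaffected by a single scaling factor per library, such as that of TPM. Quantile normalization, which is no such factor, narrowed their difference, with log2 fold changes of 0.38 for H2-K1 and 0.10 for H2-D1. H2-K1 over H2-D1 was 1.82 and 1.84 in WT and 2.63 and 2.85 in R111A. The WT libraries were nearly equal, and both R111A libraries were clearly higher. A ratio shows that the 2 genes changed unequally and does not show which of them moved. Of the 100-base windows of the H2-K1 transcript 0% were shared exactly with another class I transcript of the GENCODE set, and of those of H2-D1 4.64% were. Sharing with H2-L, a close relative of H2-D1, was not measured, since that set does not hold it.

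H2-T23 (NCBI gene 15040, chr17:36029977-36032701) encodes Qa-1, a nonclassical heavy chain that presents leader peptides of other class I molecules. It stood at 232 and 257 FPKM in the WT pair and 286 and 216 FPKM in the R111A pair. As for H2-D1, R111A replicate 1 was the highest library and R111A replicate 2 the lowest. Its log2 fold change was 0.03 (SE 0.16, limma, adjusted p = 0.90) on the FPKM scale and -0.31 (adjusted p = 0.081) on the TPM scale, where both R111A libraries were lower. It was -0.17 without R111A replicate 1 and -0.05 without WT replicate 1.

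H2-Q7 (NCBI gene 15018, chr17:35439140-35443773) encodes a nonclassical heavy chain of the Qa-2 type. It stood at 71.12 and 85.67 FPKM in the WT pair and 136 and 119 FPKM in the R111A pair. Both R111A libraries were high, with no overlap on either scale. Fitted across all genes, its log2 fold change was 0.70 (SE 0.15, limma, adjusted p = 0.0041) on the FPKM scale and 0.36 (adjusted p = 0.038) on the TPM scale. The call was lost without WT replicate 1, which was the lowest library (0.56, adjusted p = 0.078, from 4.3e-05 to 0.078 over the alternatives). Of the 100-base windows of H2-Q7, 11.7% were shared with H2-Q6, so reads from those windows fit both genes. Sharing with H2-Q8 and H2-Q9 was not measured, since the GENCODE set does not hold them, and may be larger. H2-Q9, named after its values were seen, stood at 86.13 and 89.80 FPKM in the WT pair and 133 and 104 FPKM in the R111A pair. How reads were split between these genes was not tested.

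The FPKM of the 4 heavy chain genes summed to 2469 and 2662 in WT and to 3628 and 3094 in R111A, a 1.31-fold higher mean (exact two-sided permutation p = 0.333, the smallest this design allows). H2-K1 made up 56.5% to 66.0% of the sum in each library. After rescaling to TPM the sums overlapped and the fold was 1.04 (exact permutation p = 1). Over 23 class I genes of the H2 region, which takes in near copies that may share reads, summed FPKM came to 2788 and 2998 for WT against 4217 and 3599 for R111A (1.35-fold, and 1.07-fold on the TPM scale).

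B2m (NCBI gene 12010, chr2:122147687-122153082) encodes the light chain that all class I molecules of the H2 region share, and of the 10 genes it rose most on the FPKM and TPM scales. It stood at 1559 and 1518 FPKM in the WT pair and 3652 and 4317 FPKM in the R111A pair. The WT libraries were nearly equal and both R111A libraries were far above them. The change on the log2 scale was 1.37 (SE 0.13, limma, adjusted p = 7.5e-05), a 2.59-fold rise of the mean. On the TPM scale it was 1.03 (SE 0.13, adjusted p = 2.6e-05), and the gene was called under each of 15 alternatives, with log2 fold changes from 1.03 to 1.49. Ranked by level among the 16142 genes, B2m held places 86 and 89 in the WT libraries and places 63 and 55 in the R111A libraries.

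B2m therefore rose by more than the sum of the 4 heavy chain genes and than each of them. H2-Q4, a heavy chain gene outside the 4, rose about as much (log2 fold change 1.31, against 1.37 for B2m). With quantile normalization it rose more than B2m (1.52 against 1.14). The summed heavy chains over B2m were at 1.583 and 1.754 in WT and at 0.9936 and 0.7167 in R111A, a ratio of the means of 0.512 (exact two-sided permutation p = 0.333). Both R111A libraries were low, and this ratio is the same on the FPKM and TPM scales. With the 23 genes of the H2 region in place of the 4, it was 1.788 and 1.976 in WT and 1.155 and 0.8336 in R111A. For single genes, H2-K1 over B2m was 0.897 and 0.991 in WT and 0.636 and 0.473 in R111A, and H2-D1 over B2m was 0.493 and 0.538 in WT and 0.242 and 0.166 in R111A. These are transcript levels, and protein at the cell surface was not analysed here.

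**Figure D2:**
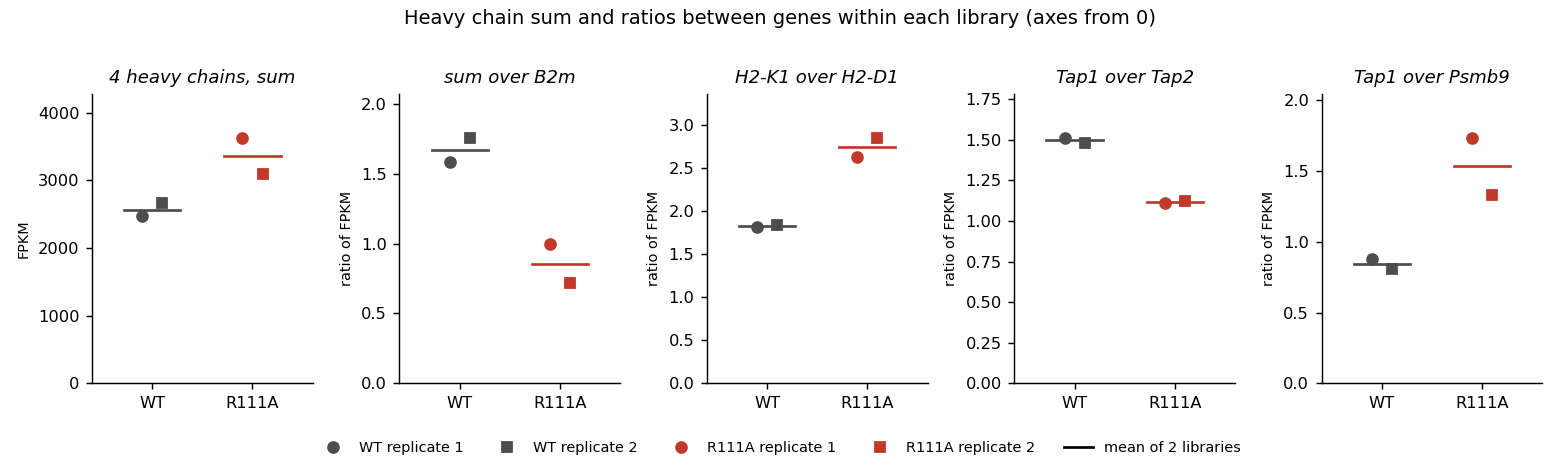
Summed FPKM of the 4 heavy chain genes (left) and ratios of FPKM within each library, all from 0, with points for libraries and lines for group means. The sum over B2m was lower in both R111A libraries (0.9936 and 0.7167, against 1.583 and 1.754), and H2-K1 over H2-D1 was higher in both.

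Tap1 (NCBI gene 21354, chr17:34187556-34197225) and Tap2 (NCBI gene 21355, chr17:34204479-34216321) encode the subunits of the peptide transporter. Tap1 stood at 99.96 and 95.02 FPKM in the WT pair and 116 and 79.16 FPKM in the R111A pair. Tap2 stood at 66.36 and 64.18 FPKM in the WT pair and 104 and 70.85 FPKM in the R111A pair. For Tap1 the R111A libraries lay on both sides of WT, and for Tap2 both were above WT, R111A replicate 2 by little. The log2 fold changes were -0.03 for Tap1 (SE 0.18, limma, adjusted p = 0.92) and 0.39 for Tap2 (SE 0.18, adjusted p = 0.10), and on the TPM scale they were -0.36 (adjusted p = 0.077) and 0.06 (adjusted p = 0.76). Tap2 was called without R111A replicate 2 (0.67, adjusted p = 0.0022, from 0.0022 to 0.76 over the alternatives), with quantile normalization (0.63, adjusted p = 0.024) and with the replicate number as a term (0.39, adjusted p = 0.026). It fell to 0.12 without R111A replicate 1 and to 0.20 with the length and GC trend removed, and was called in neither. Tap1 was called lower without R111A replicate 1 (-0.30, adjusted p = 0.031, up to 0.98). Tap1 turned to 0.25 without R111A replicate 2 and to 0.01 without WT replicate 1.

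Tap1 over Tap2 was 1.51 and 1.48 in WT and 1.11 and 1.12 in R111A. Although each gene differed between the R111A replicates, the ratio was nearly the same in both, and it was lower than in both WT libraries. The start site of Tap1 lies 226 bases from that of Psmb9, an immunoproteasome gene transcribed in the opposite direction, which was picked out after its values were seen. Psmb9 stood at 114 and 118 FPKM in the WT pair and 67.04 and 59.33 FPKM in the R111A pair (log2 fold change -0.87, SE 0.13, limma, adjusted p = 0.00073). Tap1 over Psmb9 was 0.875 and 0.807 in WT and 1.73 and 1.33 in R111A, so these neighbours changed unequally.

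Tapbp (NCBI gene 21356, chr17:33919478-33929290) encodes tapasin, which holds empty class I molecules at the transporter. It stood at 74.32 and 64.65 FPKM in the WT pair and 95.30 and 49.80 FPKM in the R111A pair. R111A replicate 1 was the highest library and R111A replicate 2 the lowest, and this gene differed most between the R111A replicates of the 10 (0.92 on the log2 scale). Its log2 fold change was -0.01 (SE 0.26, limma, adjusted p = 0.98), with a 95% interval from -0.60 to 0.59, and a change within that interval was not detectable. A single library set its direction: the gene was called lower without R111A replicate 1 (-0.47, adjusted p = 0.018) and higher without R111A replicate 2 (0.45, adjusted p = 0.020), and adjusted p ran up to 0.99 over the alternatives. Without WT replicate 1 it was 0.09.

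Erap1 (NCBI gene 80898, chr13:74639573-74693205) encodes the aminopeptidase that trims peptides in the endoplasmic reticulum to the length class I molecules hold. It stood at 51.48 and 53.36 FPKM in the WT pair and 26.80 and 38.29 FPKM in the R111A pair. The WT libraries were close together, and both R111A libraries were low with no overlap. Fitted across all genes, its log2 fold change was -0.69 (SE 0.17, limma, adjusted p = 0.010), and on the TPM scale it was -1.02 (SE 0.18, adjusted p = 3e-04). Without R111A replicate 1 it was -0.44 and without R111A replicate 2 it was -0.94, with the gene called both ways. With no filter on low values the call was lost at the same fold change (adjusted p = 0.051, from 6.5e-05 to 0.051 over the alternatives). Unlike 8 of the 10 genes, Erap1 and B2m were higher in R111A replicate 2 than in R111A replicate 1.

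Nlrc5 (NCBI gene 434341, chr8:94434335-94527272) encodes the transactivator of class I genes, and it had the lowest level of the 10. It stood at 26.25 and 23.51 FPKM in the WT pair and 25.24 and 22.22 FPKM in the R111A pair. The groups overlapped, and the difference between them was within the spread of the replicates. The change on the log2 scale was -0.07 (SE 0.14, limma, adjusted p = 0.71), with a 95% interval from -0.39 to 0.25. Rescaled to TPM, it was called, at -0.39 (adjusted p = 0.041, up to 0.98 over the alternatives), which is 0.03 above the median of all genes on that scale. Without R111A replicate 2 it was 0.02, and without WT replicate 1 it was 0.01.

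**Figure D3:**
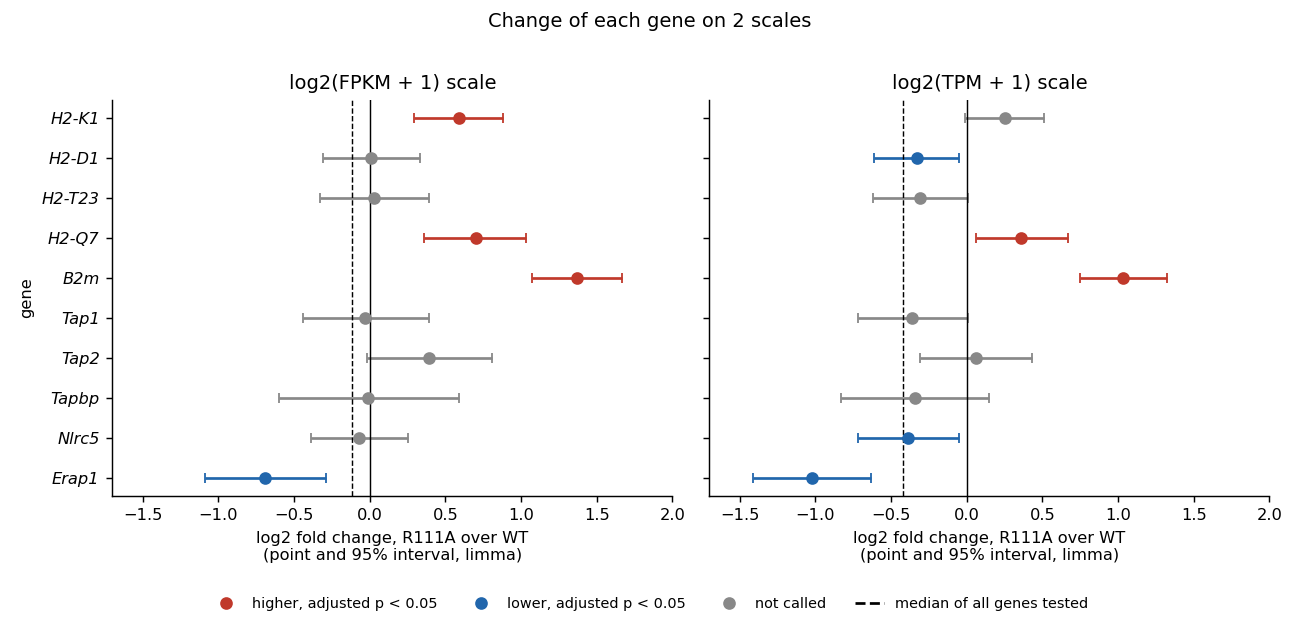
Log2 fold change of R111A over WT (horizontal axis) of each class I gene on the log2(FPKM + 1) scale (left) and the log2(TPM + 1) scale (right), with 95% intervals from limma. Dashed lines mark the median of all 9831 genes tested, at -0.12 and -0.42, and B2m stood at 1.37 and 1.03.

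The other genes of the pathway were read as lists, each beside the median of all genes (-0.12 FPKM, -0.42 TPM). Their counts stand beside the shares of all genes tested, which were 21.2% higher and 32.1% lower on the FPKM scale and 13.6% higher and 51.8% lower on the TPM scale. Of 31 other class I and class I-like heavy chain genes, 24 were in the table and 12 passed the filter, of which limma called 9 higher, 0 lower (1 at an unadjusted p under 0.05) and 3 not, with a median log2 fold change of 0.56. Mr1, named after its values were seen, is among the 9 and passed the filter only through its R111A libraries. Without it 8 of 11 were higher, with a median of 0.56. Of this list Gm7030 was listed at 0 in all libraries. After rescaling to TPM 4 were higher, 1 lower and 7 not called, with a median of 0.29, and without Mr1 3 of 11 were higher, with a median of 0.27. H2-Q4, a Q-region gene and the most abundant of this list, stood at 83.93 and 86.48 FPKM in the WT pair and 238 and 191 FPKM in the R111A pair (log2 fold change 1.31, SE 0.14, adjusted p = 0.00013). Both R111A libraries were above both WT libraries, and 1.12% of its windows were shared with H2-Q6. Sharing with H2-Q8 and H2-Q9 was not measured for this gene either. H2-T-ps, a class I pseudogene outside this list that was picked out after its values were seen, stood at 11.80 and 14.06 FPKM in the WT pair and 62.12 and 52.83 FPKM in the R111A pair. H2-L, a gene of this list that B6 mice are known to lack and that was also picked out afterwards, still had values of 3.78 and 2.63 FPKM in the WT pair and 7.24 and 3.14 FPKM in the R111A pair.

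Of 10 folding and loading factors of the endoplasmic reticulum, 7 were called lower, 1 higher and 2 not, with a median of -0.44 on the log2 scale. The TPM counts were equal to these, with a median of -0.76. Calr, a chaperone of the loading complex and the most abundant, stood at 654 and 642 FPKM in the WT pair and 452 and 437 FPKM in the R111A pair, below both WT libraries in both (log2 fold change -0.54, SE 0.12, limma, adjusted p = 0.0050, lost without WT replicate 1 at 0.061, from 5.8e-05 to 0.061 over the alternatives). The higher gene was Tapbpl, a tapasin-like peptide editor named after its values were seen, at 32.36 and 30.49 FPKM in the WT pair and 57.38 and 55.32 FPKM in the R111A pair.

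Of 8 cytosolic and vesicular peptidases tested, limma called 5 lower, 0 higher (0 also at an unadjusted p under 0.05) and 3 not on the FPKM scale, with a median of -0.52. The TPM counts were 7 lower, 0 higher (0 also at an unadjusted p under 0.05 in limma) and 1 not, with a median of -0.85. Ide stood at 96.74 and 83.70 FPKM in the WT pair and 20.83 and 21.00 FPKM in the R111A pair (log2 fold change -2.05, SE 0.13, limma, adjusted p = 1.3e-05), and its R111A libraries were far below those of WT. Thop1, which cuts peptides in the cytosol, went from 49.68 and 50.73 FPKM to 22.95 and 16.39 FPKM (-1.33, SE 0.17, adjusted p = 0.00033). Lap3, a leucine aminopeptidase and the most abundant, went from 86.76 and 86.75 FPKM to 52.68 and 57.75 FPKM (-0.64, SE 0.13, adjusted p = 0.0030). Erap1 thus lay in the same direction as the called genes of this list.

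Of 6 immunoproteasome and activator genes, 3 were called lower, 1 higher and 2 not on the FPKM scale, with a median of -0.40, and 5 lower, 1 higher and 0 not on the TPM scale, with a median of -0.73. Psme2, a subunit of the proteasome activator and the most abundant, stood at 768 and 854 FPKM in the WT pair and 662 and 563 FPKM in the R111A pair (log2 fold change -0.41, SE 0.14, limma, adjusted p = 0.033, from 0.00027 to 0.27 over the alternatives). Its call was lost without a filter, after median-of-ratios or quantile normalization, and without R111A replicate 2 (-0.29), WT replicate 1 (-0.48) or WT replicate 2 (-0.33). Of the 3 constitutive catalytic subunits limma called 0 in either direction on the FPKM scale (0 also at an unadjusted p under 0.05), with a median of 0.03. On the TPM scale 1 was called lower (2 at an unadjusted p under 0.05), with a median of -0.31. Psmb7, the most abundant, stood at 349 and 378 FPKM in the WT pair and 348 and 427 FPKM in the R111A pair. Its groups overlapped on the FPKM scale (log2 fold change 0.09, and -0.06 without R111A replicate 2). On the TPM scale both R111A libraries were below both WT libraries, at -0.25 and not called.

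Of 19 factors that act on class I promoters or chromatin, 3 were called higher, 4 lower and 12 not on the FPKM scale, with a median of 0.11. After rescaling, 2 were higher, 8 lower and 9 not, with a median of -0.21, and on neither scale did the share called higher or lower exceed that of all genes. Irf8, an interferon regulatory factor, stood at 129 and 139 FPKM in the WT pair and 28.53 and 19.89 FPKM in the R111A pair (log2 fold change -2.44, SE 0.18, limma, adjusted p = 1.9e-05). Irf2, another interferon regulatory factor, named after its values were seen, was called higher. It went from 16.83 and 15.09 FPKM to 42.20 and 24.12 FPKM (0.96, SE 0.23, limma, adjusted p = 0.0083). On the TPM scale its change was 0.64. Ezh2 and Suz12, subunits of the Polycomb repressive complex that can silence class I genes, were lower in both R111A libraries. Ezh2 went from 53.20 and 48.69 FPKM to 17.10 and 22.53 FPKM (-1.33, SE 0.16, adjusted p = 0.00023), and Suz12 from 57.25 and 59.06 FPKM to 18.35 and 27.23 FPKM (-1.34, SE 0.18, adjusted p = 0.00047). Eed, another core subunit of that complex, named after its values were seen, went the other way on the FPKM scale, from 64.76 and 66.85 FPKM to 74.77 and 90.87 FPKM, and was not called (0.32, SE 0.14, adjusted p = 0.084; TPM -0.01). Nfkb1, the most abundant, stood at 235 and 225 FPKM in the WT pair and 344 and 261 FPKM in the R111A pair, higher in both libraries and not called (log2 fold change 0.38, SE 0.15, adjusted p = 0.063, from 0.0039 to 0.78 over the alternatives). It was called without R111A replicate 2 (0.58), with median-of-ratios factors, quantile normalization or the replicate number as a term, and with the length and GC trend removed, and it fell to 0.19 without R111A replicate 1. On the TPM scale the log2 fold change of Nfkb1 was 0.05, not called, and the groups overlapped. Nlrc5 itself was not called on the FPKM scale.

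Of 13 genes of interferon receptors and signalling, 3 were called higher, 4 lower and 6 not on the FPKM scale, with a median of 0.03, and 2 higher, 6 lower and 5 not on the TPM scale, with a median of -0.30. Ifng, which encodes interferon-gamma, stood at 17.34 and 16.10 FPKM in the WT pair and 7.20 and 7.30 FPKM in the R111A pair (log2 fold change -1.10, SE 0.14, limma, adjusted p = 0.00027). Ifngr1, a chain of its receptor, went the other way, from 19.06 and 19.15 FPKM in WT to 71.81 and 57.24 FPKM in R111A (log2 fold change 1.70, SE 0.15, adjusted p = 4.6e-05). Ifngr2, the other chain of that receptor, named after its values were seen, was lower, from 16.95 and 17.50 FPKM to 11.36 and 7.07 FPKM (-0.87, SE 0.20, adjusted p = 0.0066), so the chains moved in opposite directions. Stat2 rose from 5.65 and 4.64 FPKM to 14.93 and 10.53 FPKM (log2 fold change 1.15, SE 0.19, adjusted p = 0.0011), and Jak1, the most abundant, went from 81.36 and 75.70 FPKM to 112.85 and 90.99 FPKM and was not called (0.36, SE 0.14, adjusted p = 0.062, from 0.0063 to 0.85 over the alternatives). Jak1 was called under the same 5 alternatives as Nfkb1, among them without R111A replicate 2 (0.52) and with the replicate number as a term (adjusted p = 0.040), and it fell to 0.21 without R111A replicate 1. Rescaled to TPM, Jak1 had a log2 fold change of 0.03, not called, with overlapping groups. What part the differences in these genes have in those of B2m, H2-K1 or H2-Q7 was not tested.

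**Figure D4:**
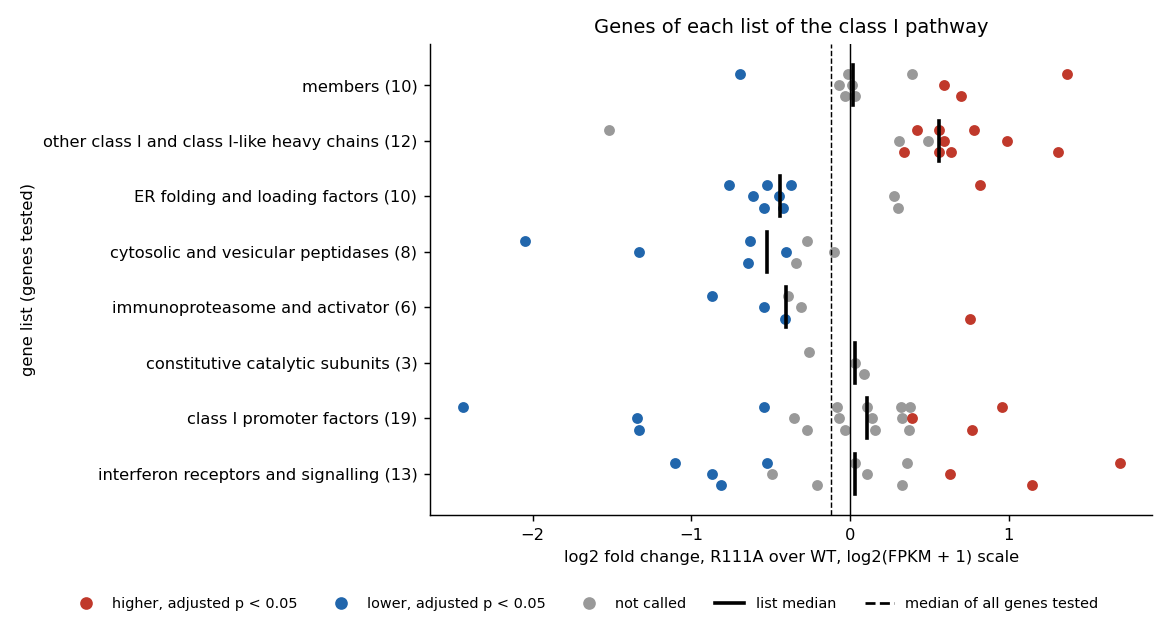
Log2 fold change of R111A over WT (horizontal axis, log2(FPKM + 1) scale) of each tested gene in each list of the pathway, red for higher and blue for lower at an adjusted p under 0.05. Bars mark list medians and the dashed line the median of all genes (-0.12); the other heavy chains had a median of 0.56 and the peptidases of -0.52.

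Markers of other cells that express class I genes were read beside these values, and their counts too stand beside the shares of all genes (21.2% higher and 32.1% lower on the FPKM scale, 13.6% and 51.8% on the TPM scale). The 10 class II presentation genes, which B cells, dendritic cells and macrophages express, summed to 52.44 and 51.02 FPKM in WT and to 49.82 and 44.43 FPKM in R111A, and of 6 tested limma called 0 higher (0 also at an unadjusted p under 0.05), 1 lower and 5 not on the FPKM scale (2 lower on the TPM scale). Cd74 was the most abundant of them, at 15.12 to 21.42 FPKM. The 6 B cell markers summed to 2.21 and 1.03 FPKM in WT and to 5.33 and 4.71 FPKM in R111A, with Cd79a the most abundant at up to 2.99 FPKM. Of these, 2 passed the filter on low values, both only through their R111A libraries, so their calls are not counted. The 8 myeloid markers summed to 5.80 and 2.33 FPKM in WT and to 17.38 and 14.82 FPKM in R111A, with Cd68 the most abundant at 1.54 and 0.78 FPKM in WT against 8.89 and 6.81 FPKM in R111A. Of the 4 that passed the filter some did so only through the group where they were high, so calls are not counted here either. Among them Tyrobp, named after its values were seen, had a lower mean in R111A. It stood at 2.94 and 0.63 FPKM in WT and 0.85 and 0.97 FPKM in R111A, with overlapping groups. The 5 dendritic cell markers summed to 1.76 and 1.53 FPKM in WT and to 2.31 and 2.47 FPKM in R111A, with the single gene tested, Zbtb46, not called by limma (1 at an unadjusted p under 0.05). Not all of these moved one way: Siglech, named after its values were seen, was at 0.20 and 0.26 FPKM in WT and listed at 0 in both R111A libraries, and Flt3, named likewise, had means of 0.245 FPKM in WT and 0.16 FPKM in R111A. The sums of B cell and myeloid markers moved with the group, and their part in the class I differences was not tested.

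The 4 NK cell markers summed to 1.14 and 1.00 FPKM in WT and to 7.61 and 5.30 FPKM in R111A, led by Eomes, which passed the filter only through its R111A libraries. The 5 erythroid markers summed to 0.66 and 0.70 FPKM in WT and to 12.85 and 12.97 FPKM in R111A, almost all of it Hba-a1, which also passed only through R111A, with Hba-a2 and Hbb-bs listed at 0 in all libraries. The 2 CD8+ T cell markers summed to 7.31 and 6.76 FPKM in WT and to 3.88 and 4.46 FPKM in R111A, led by Cd8b1, which was called lower. The 5 regulatory T cell markers summed to 197 and 196 FPKM in WT and to 143 and 148 FPKM in R111A, and limma called 2 of 5 lower and 0 higher (0 also at an unadjusted p under 0.05) on the FPKM scale and all 5 lower on the TPM scale. Il2ra, the most abundant and also an activation gene, was not called on the FPKM scale (-0.11, adjusted p = 0.47) and was called lower on the TPM scale (-0.44, adjusted p = 0.011). The 2 called lower on both scales, named after their values were seen, were Foxp3, from 11.31 and 8.78 FPKM to 2.86 and 1.86 FPKM, and Ctla4, from 38.94 and 44.32 FPKM to 8.94 and 12.03 FPKM. Of the 12 CD4+ T cell markers limma called 2 higher, 4 lower and 6 not on the FPKM scale and 0 higher (0 also at an unadjusted p under 0.05), 9 lower and 3 not on the TPM scale, with Lat the most abundant and sums of 3114 and 3150 FPKM in WT and 2959 and 2733 FPKM in R111A. The part of any of these cells in the levels of B2m, H2-K1, H2-Q7 and Erap1 was not tested.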

How the data were processed

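The authors sequenced polyA RNA, aligned reads to mm10 with Bowtie2 (2.4.4) and estimated expression with RSEM (1.2.28). They deposited FPKM values for 16142 genes and 4 libraries. Their DESeq2 test was not repeated, since the deposited table holds no counts. Here log2(FPKM + 1) was fitted with limma (3.58.1, R 4.3.3; lmFit, eBayes with trend, Benjamini-Hochberg over the 9831 genes whose mean reached 1 FPKM), and a gene was called at an adjusted p under 0.05. The pseudocount shrinks the fold change of genes with low values. Groups came from the sample labels. Gene positions, matched for 10 of 10 genes by gene ID, are from RefSeq GRCm38.p6, the assembly of mm10. Shared 100-base windows were found in GENCODE M21 transcripts, which did not hold every copy (H2-Q8, H2-Q9 and H2-L).

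Alternatives were pseudocounts of 0.1 and 5, no filter or a filter at 5 FPKM, TPM, median-of-ratios factors, quantile normalization, eBayes without trend or robust, a replicate block, each library left out and, added after the data were seen, removal of a loess trend (span 0.5) in transcript length and GC content. The genes and lists were chosen with earlier results of these data known. Genes named were every class I gene of the set, of each other list those past an adjusted p of 0.05 and 2-fold with a mean of at least 5 FPKM plus the most abundant, and of each marker list the most abundant and those at 0, with Cd3e, Cd4 and Zc3h12a. Sums were read with an exact two-sided permutation test. Unstimulated cells were not analysed here. Python 3.11.15, numpy 2.4.6, pandas 2.3.3, scipy 1.17.1 and matplotlib 3.10.9 were used.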

Additional observations from a re-analysis of the deposited data

How the results depend on the processing

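B2m kept its direction and its call under all 15 alternatives, and H2-K1, H2-Q7 and Erap1 each kept their direction and lost the call under 1. Rescaling to TPM gave 2 class I genes higher, 3 lower and 2 past 2-fold, with 1335 genes higher and 5096 lower over all genes, and heavy chain sums 1.04-fold and, with all listed H2 genes, 1.07-fold higher. With no filter 0 class I genes were lower, since Erap1 had an adjusted p of 0.051 in limma against 0.010. With the 2-fold threshold 1 was higher and 0 were lower. Leaving out 1 library gave 2 to 5 genes higher (5 without R111A replicate 2) and 1 to 3 lower (3 without R111A replicate 1), and over all genes 1937 to 3790 lower (1957 without WT replicate 1 and 1937 without WT replicate 2), where the lone library is assumed to vary like the other group. The direction turned for genes close to no change, for H2-D1 (TPM -0.33, length and GC trend removed -0.08), H2-T23 (TPM -0.31), Psmb7 (TPM -0.25), Tap1 (median-of-ratios 0.07, quantile 0.22), Tapbp (0.08, 0.22) and Nlrc5 (0.02, 0.03, and 0.01 with the length and GC trend removed). Leaving out 1 library moved H2-D1 from -0.14 to 0.16, H2-T23 from -0.17 to 0.23, Tap1 from -0.30 to 0.25, Tapbp from -0.47 to 0.45, Nlrc5 from -0.15 to 0.02, Psmb7 from -0.06 to 0.23, Tap2 from 0.12 to 0.67 and Erap1 from -0.94 to -0.44. The causes were not tested. Replicate numbers are shared by the groups, and nothing says that they mark a batch. Over 9831 genes the differences between replicates 1 and 2 in WT and R111A had a correlation of 0.111. With the replicate block, 4 class I genes were higher and 1 lower, Tap2 being called (0.39, adjusted p = 0.026 in limma, from 0.0022 to 0.76 over the alternatives), as were Nfkb1 and Jak1 (adjusted p = 0.033 and 0.040), with 2236 genes higher and 3358 lower over all genes. With 2 libraries a group, a median replicate difference of 0.35 on the log2 scale among the class I genes in R111A limits what could be called, and the depth behind low values is not known.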
